A study of Zea mays with 36 samples.

Results

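The day-long response of maize roots to nitrate was followed across all probes of a spotted cDNA array, on which amplified clones are printed onto glass and 2 dye-labelled samples are hybridised at once. The arrays belonging to the 24 h exposure were taken by their titles and make up 18 of the 36 scans of the series, or 6 of its 12 biological replicates, since the scanner read each array at High, Medium and Low power. The nitrate roots spent 24 h in 5 mM calcium nitrate and the control roots 24 h in fresh 5 mM calcium sulfate, after 10 days of growth in calcium sulfate. The other 6 replicates of the series were exposed to the same solutions for 30 min on day 11. All plants were of the inbred line B73, all samples were whole root tissue, and both solutions held calcium. Calcium nitrate thus took the place of calcium sulfate, and the arrival of nitrate and the loss of sulfate cannot be told apart. Nitrate carried Cy5 in replicates 1, 3 and 5 and Cy3 in replicates 2, 4 and 6, with the control in the other channel of the same array, and every ratio below is nitrate over control.

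Nitrate is the main form of nitrogen taken up by crop roots in aerated soil. It enters root cells through nitrate transporters and is reduced in 2 steps, by nitrate reductase and nitrite reductase, to ammonium, which is built into amino acids. In plants nitrate also acts as a signal, and genes of its own uptake and reduction, and of the supply of reducing power, are among those known to be induced by it. Over a day such transcripts are joined by others that depend on the nitrogen status of the plant. Which of the probes stand for these genes was not settled here. Of the 7688 probes, only 3 carried or matched a gene name, so that lists of nitrate assimilation, redox supply, sulfate, transporter, ribosomal, haemoglobin and stress genes, and of leaf markers, could not be matched to probes, and the root label could not be checked against marker genes. Probes are given by the accession of the clone they carry, and no clone sequence is printed.

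After 24 h, 1127 of 7688 probes (14.7%) differed between nitrate and control roots at an adjusted p under 0.05 (limma, Benjamini-Hochberg over all probes), relative to the centre of each scan. Of these, 562 probes (7.31% of all) were higher and 565 (7.35%) were lower in nitrate roots. Most changes were small, with median log2 ratios of 0.50 (higher probes) and -0.49 (lower probes). The far end of the response was one-sided. More than 2-fold differences were reached by 81 higher probes (1.05%) and 27 lower ones (0.351%), more than 4-fold by 15 higher and 0 lower probes, and more than 8-fold by 6 higher and 0 lower probes. Over all probes the 5th and 95th percentiles of the log2 ratio were nearly symmetric, at -0.44 and 0.43, whereas the 1st and 99th were -0.76 and 1.01. When loess curves were fitted within each of 32 blocks of spots instead of once per scan, a setting chosen after the data had been seen and described below, 2686 probes (34.9%) passed, 1353 (17.6%) higher and 1333 (17.3%) lower. The counts past 2-fold were then 84 (1.09%) and 26 (0.338%). Both settings gave 15 higher and 0 lower probes past 4-fold.

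**Figure D1:**
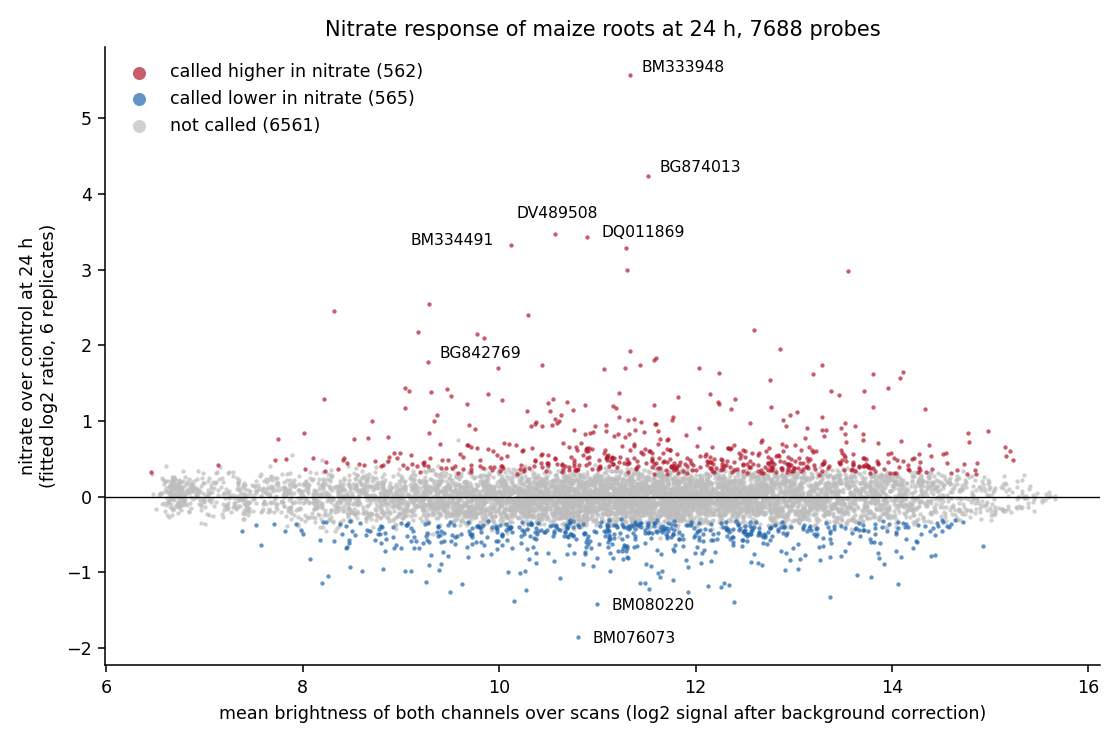
Each point is 1 of 7688 probes, with its mean brightness over both channels on the x axis (log2 signal) and its fitted log2 ratio of nitrate over control at 24 h on the y axis (6 replicates, one loess per scan). Red points are the 562 probes called higher and blue points the 565 called lower in nitrate at an adjusted p under 0.05. The rises reach 5.56 and the falls -1.86.

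BM333948 had the highest ratio of all probes called with one sign in all 6 replicates. On the 6 High scans its spot gave a lowest, median and highest signal of 32142, 46675 and 60221 scanner units in the nitrate channel, against 444, 2133 and 6277 units in the control channel. The channels did not overlap. After correction and scaling, its log2 ratios in replicates 1 to 6 were 3.03, 7.93, 4.43, 7.04, 5.54 and 5.42. Every replicate showed a rise of more than 8-fold, and the highest values came from arrays with nitrate on Cy3. The mean was 5.56 ± 1.76 (SD, n = 6), or 47.3-fold (limma, adjusted p = 1.04e-10). The control signal was under 1.5 times its local background in 2 of 6 High scans, so that the size of the ratio there rests on a control spot close to background. The spot was saturated in 2 of 6 High scans and 1 of 6 Medium scans, and in replicate 3 its log2 ratio was 3.30 on the High and 6.15 on the Low scan. When only the strongest unsaturated scan of each spot was used, the fitted log2 ratio was 6.20, or 73.4-fold. With the loess curves fitted within blocks the log2 ratio was 5.71 ± 1.29 (SD, n = 6).

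BG874013 was second. Its High-scan signals had a lowest, median and highest value of 21846, 38229 and 57861 units in nitrate roots, against 1171, 2536 and 3573 units in control roots. Here too the channels did not overlap, and no control spot lay near background. The spot was saturated in 2 of 6 High scans and 1 of 6 Medium scans. In replicate 3 its log2 ratio was 3.01 on the High and 5.02 on the Low scan. With only the strongest unsaturated scan of each spot, the fitted log2 ratio was 4.44. The log2 ratios in replicates 1 to 6 were 3.38, 5.80, 3.83, 4.28, 3.18 and 4.93, with a mean of 4.23 ± 0.99 (SD, n = 6), an 18.8-fold rise (limma, adjusted p = 4.26e-12). The same sign in all 6 replicates was a condition for naming the probe, and the smallest of its rises was 3.18 on the log2 scale. The block-wise loess gave 4.37 ± 0.60 (SD, n = 6).

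BM334491 and DQ011869 led the ranking by limma's moderated t, the change relative to its error, with one loess per scan. BM334491 had log2 ratios of 3.32, 3.27, 3.70, 3.24, 3.29 and 3.14 in replicates 1 to 6. Apart from replicate 3 these values lay within 0.2 of each other, although they came from both dye orientations. The mean was 3.33 ± 0.20 (SD, n = 6), a 10.0-fold rise (limma, adjusted p = 1.07e-13). DQ011869 had log2 ratios of 3.19, 3.84, 3.67, 3.49, 3.54 and 2.88, with a mean of 3.44 ± 0.35 (SD, n = 6), a 10.8-fold rise (limma, adjusted p = 1.01e-12). For both probes the nitrate signals lay above all control signals on the High scans. The nitrate channel of BM334491 ran from 3565 to 41274 units and its control channel from 673 to 2229 units, and that of DQ011869 from 9689 to 54957 units against 1260 to 3364 units in control. Both of the highest nitrate values came from replicate 3, whose High scan is flagged below. The next highest were 13687 and 21073 units. The spot of DQ011869 was saturated in 1 High and 1 Medium scan, and that of BM334491 in 0 scans. With the block-wise loess BM334491 had a mean of 3.29 ± 0.23 and DQ011869 one of 3.36 ± 0.50 (SD, n = 6 each), so that the spread of DQ011869 was wider in that setting.

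The deepest falls were shallower than the leading rises. BM076073 had High-scan signals with a lowest, median and highest value of 1414, 3762 and 8235 units in nitrate roots, against 6109, 10160 and 17159 units in control roots. The ranges over arrays overlapped, but on each array the nitrate signal was the lower one. Its log2 ratios in replicates 1 to 6 were -2.12, -2.01, -2.40, -1.07, -1.87 and -1.66, with a mean of -1.86 ± 0.46 (SD, n = 6), or 0.276 of control (limma, adjusted p = 1.79e-09). BM080220 had High-scan signals of 2096, 4561 and 13070 units in nitrate roots (lowest, median and highest), against 6237, 9516 and 20425 units in control roots. Again each array had the lower signal in its nitrate channel. For both probes the highest value of either channel came from replicate 3, whose High scan is flagged below. Its log2 ratios were -2.05, -1.49, -1.89, -0.58, -1.58 and -0.96, with a mean of -1.42 ± 0.56 (SD, n = 6), or 0.373 of control (limma, adjusted p = 1.38e-07). Replicate 4 gave the weakest fall for both probes. These were also the lower probes ranked first by moderated t. Both were picked among probes with the same sign in all 6 replicates, so that their common direction is no separate support. The block-wise values were -1.90 ± 0.34 and -1.29 ± 0.29 (SD, n = 6 each).

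**Figure D2:**
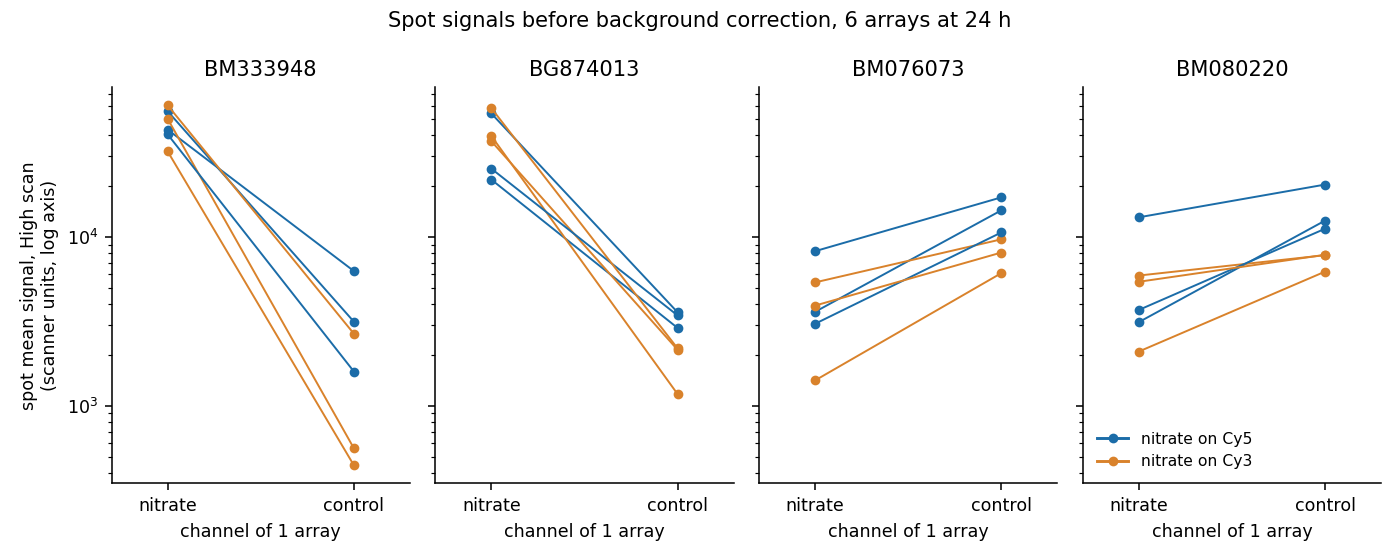
Spot mean signals on the High scan of each 24 h array, before background correction, on a log axis in scanner units, with the nitrate channel on the left and the control channel on the right of each panel. Each line joins the 2 channels of 1 array, blue where nitrate carried Cy5 and orange where it carried Cy3. The nitrate end of all 6 lines is the higher one for BM333948 and BG874013 and the lower one for BM076073 and BM080220. The probes were picked among those whose ratios had the same sign in all 6 replicates.

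Among the 200 probes spotted at 2 places on the slide, the pairs gave a check within each array. The spots of a pair came from different clone plates in 194 cases and lay in different blocks in 198. Across the 200 pairs the log2 ratios of the spots correlated at r = 0.79, a correlation across probes on the same arrays, with a median absolute difference of 0.111. Both spots were called in 26 pairs, 1 spot in 31 and neither in 143, and 0 pairs were called in opposite directions. In 26 of the 31 pairs with 1 called spot the other spot had the same sign. With the block-wise loess both spots were called in 50 pairs and 1 spot in 55.

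BG842769 was the leading riser among these. Its spots lay in blocks 5 and 22 and had log2 ratios of 1.78 ± 0.21 and 1.78 ± 0.32 (SD, n = 6 each). Averaged over the spots, replicates 1 to 6 ranged from 1.51 to 2.08, with a median of 1.78. The fitted rise was 3.43-fold (limma, adjusted p = 1.52e-10). BG841837 rose 2.42-fold, and its spots differed more, with 1.55 ± 0.68 in block 14 and 1.01 ± 0.28 in block 15 (SD, n = 6 each). Its ratio averaged 1.66 with nitrate on Cy5 and 0.90 with nitrate on Cy3. BG841623 had spot ratios of -1.22 and -1.10 in blocks 26 and 29 and averaged -1.16 ± 0.44 (SD, n = 6; limma, adjusted p = 1.05e-05), or 0.447 of control. BG842880 had -1.05 and -1.11 in blocks 5 and 6 and a mean of -1.08 ± 0.60 (SD, n = 6; limma, adjusted p = 2.94e-05), or 0.474 of control. Every spot of these 4 probes passed when it was fitted on its own, although the probes had been picked by the mean of the same spots.

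The 3 probes with a name did not pass. AI665898 is a synonym of the maize gene LOC100191184, for which reticulon is also listed as a synonym (reticulons are proteins that shape the tubules of the endoplasmic reticulum). It averaged -0.03 ± 0.48 on the log2 scale (SD, n = 6; limma, adjusted p = 0.912), with replicates from -0.74 to 0.63. The probe named rf2e3 in the files averaged 0.14 ± 0.45 on the log2 scale (SD, n = 6; limma, adjusted p = 0.461). With the block-wise loess it became 0.27 ± 0.16 (SD, n = 6; limma, adjusted p = 0.00415), higher in nitrate in 6 of 6 replicates, so that its call depends on the normalization. The probe named colim15a averaged -0.16 ± 0.65 on the log2 scale (SD, n = 6; limma, adjusted p = 0.553), and on 5 of 6 High scans its signal was under 1.5 times the local background in the nitrate channel and likewise on 5 of 6 in the control channel.

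**Figure D3:**
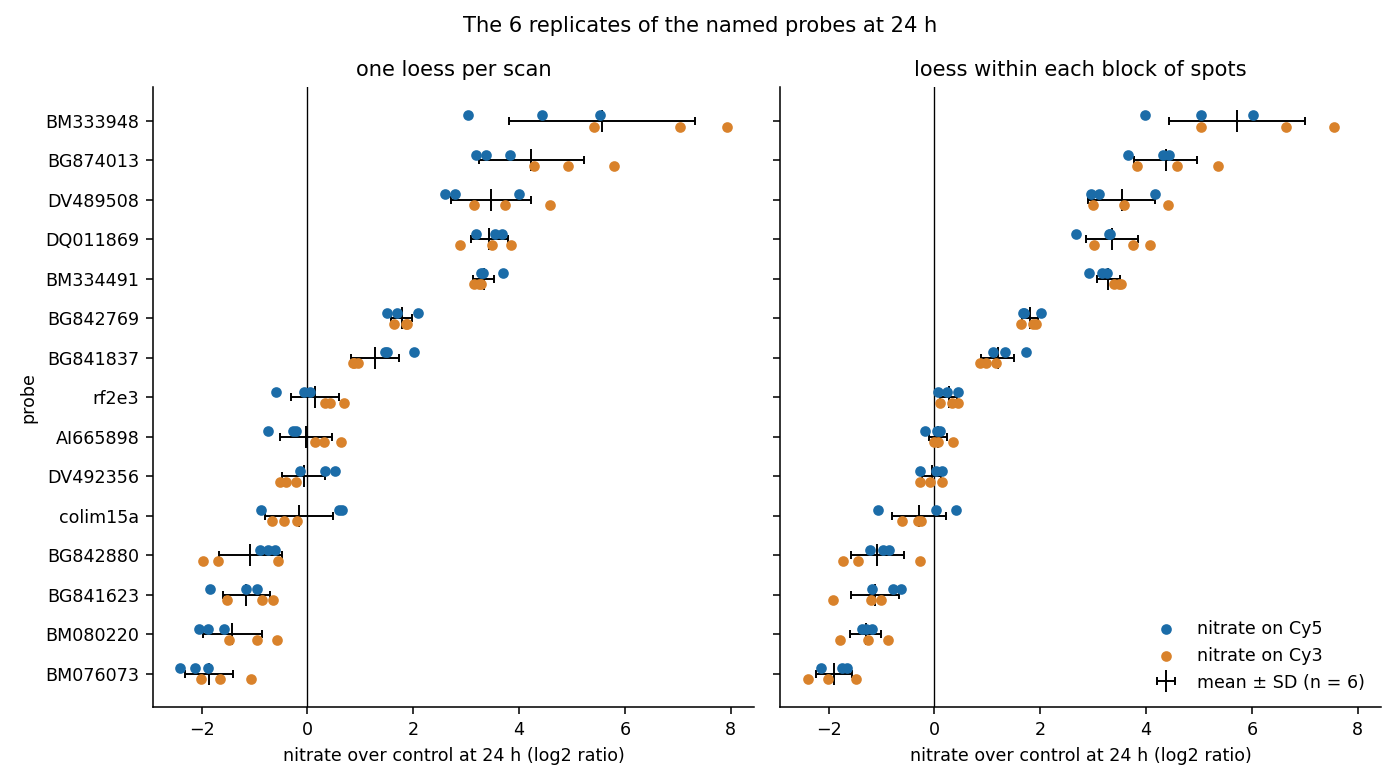
Log2 ratio of nitrate over control at 24 h (x axis) for the 15 named probes, with one loess per scan on the left and loess within blocks on the right. Points are replicates, blue where nitrate carried Cy5 and orange where it carried Cy3, and black marks are the mean ± SD (n = 6). The replicates of rf2e3 and AI665898 separate by dye orientation on the left and draw together on the right, where the SD of rf2e3 is 0.16 against 0.45.

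How far single replicates shared the response depended on which dye carried nitrate. Across the 7688 probes, replicates of one orientation correlated at r = 0.71 to 0.81 (6 pairs), whereas replicates of opposite orientation correlated at r = -0.27 to -0.03 (9 pairs). These are correlations across probes of arrays that share the dye assignment or differ in it, and genes are not independent replicates. When one array of each orientation was averaged into a dye-balanced pair, the pairs correlated at r = 0.66 to 0.79, with a median of 0.70 over 18 sets. The mean of the Cy5 replicates and the mean of the Cy3 replicates correlated at r = -0.20 over all probes. The called probes stood out from this: 923 of 1127 (81.9%) had one sign in both orientation means, against 27.3% of all probes, although passing the test itself favours such agreement. The fitted sign was seen in all 6 replicates for 553 called probes and in fewer than 4 for 74. Over all probes, 9.34% had one sign in all 6 replicates. In the model, the dye effect passed for 3353 probes (43.6%).

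Much of the opposition between orientations followed the position of the spots. Spot numbers ran from 2 to 12160, and in runs of 380 they fall into 32 blocks of 230 to 266 spots. Each block holds wells of 1 pair of plate rows and 1 class of plate columns, and clones of 31 to 32 plates, which is how the blocks were recognised. No label states them. In replicates 1, 3 and 5, with nitrate on Cy5, the median log2 ratio lay above 0 in 16 of 16 of the blocks 1 to 16 and in at most 1 of 16 of the blocks 17 to 32. In replicates 2, 4 and 6, with nitrate on Cy3, it lay above 0 in at most 1 of the blocks 1 to 16 and in 16 of 16 of the blocks 17 to 32. The block medians of single replicates ran from -0.89 to 0.72, both in replicate 1. The sign of the pattern thus turned with the dye and not with the treatment. In the mean of the 6 replicates the block medians still ran from -0.14 to 0.10. The direction of the calls ran parallel to that remainder. Over the 32 blocks it correlated at r = 0.92 with the percentage called higher minus the percentage called lower, a description of blocks on the same arrays. Blocks 25 to 32 together held 69 higher and 195 lower probes. Per block, 1.33% to 5.91% of their probes were higher and 6.36% to 15.2% lower, against 7.31% and 7.35% of all probes. With the block-wise loess 18.5% of the probes in blocks 25 to 32 were higher and 17.7% lower, near the 17.6% and 17.3% of all probes. The share of probes called per block was 8.09% to 21.1%, against 14.7% over all.

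**Figure D4:**
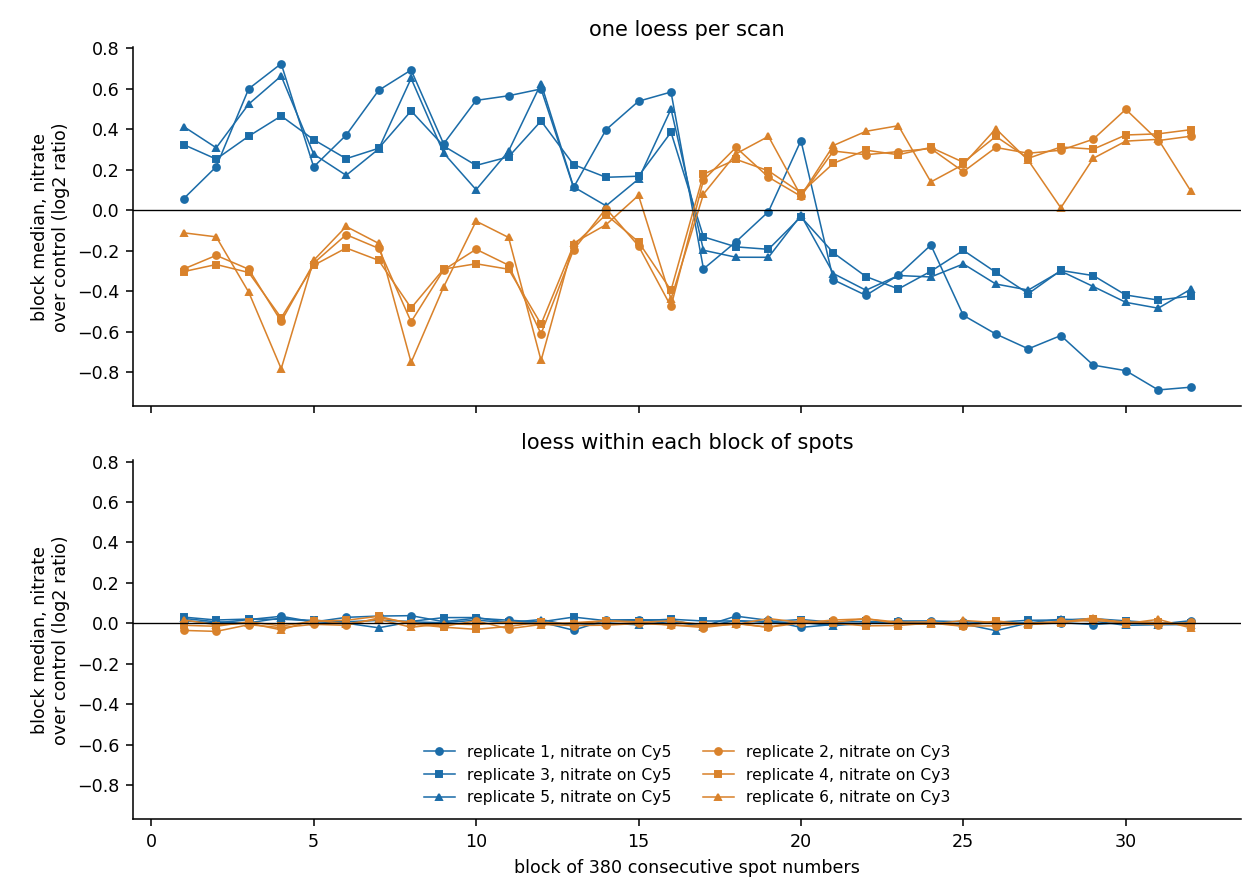
Median log2 ratio of nitrate over control at 24 h (y axis) in each of 32 blocks of 380 consecutive spot numbers (x axis), for the 6 replicates, blue with nitrate on Cy5 and orange with nitrate on Cy3. With one loess per scan (top) the orientations mirror each other and cross between blocks 16 and 17, with medians from -0.89 to 0.72. With loess within blocks (bottom) all medians lie between -0.04 and 0.04.

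With loess curves fitted within blocks, the replicates of opposite orientation correlated at r = 0.32 to 0.55, those of one orientation at r = 0.58 to 0.72, and the orientation means at r = 0.55. The median standard error of the 24 h ratio was 0.0712, against 0.119 with one loess per scan, and the dye effect passed for 833 probes (10.8%). Of the 2686 probes that then passed, 1109 were among the 1127 and 1577 were not, and 0 were called in opposite directions by the 2 settings. The probes called only by the block-wise loess had a median absolute log2 ratio of 0.24. The fitted ratios of the 2 settings correlated at r = 0.97 across probes, which does not show that they were equal in size. That of rf2e3, for example, went from 0.14 to 0.27. The SD of the ratios over all probes was 0.32 with one loess per scan and 0.31 with the block-wise loess. The median residual SD, the spread of replicates around the fit, was 0.29 and 0.18. The fitted sign was found in 6 of 6 replicates for 1833 of the 2686, and 97.3% had one sign in both orientation means, against 63.0% of all probes. Over all probes, 26.2% then had one sign in all 6 replicates. When the 24 h replicates were fitted without those of 30 min, 1689 probes passed with one loess per scan and 2101 with the block-wise loess. A loess within a block assumes that most of its 230 to 266 spots do not change. Whether the pattern arose in printing, hybridisation or scanning was not tested.

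A small set of probes kept an opposition between orientations under the block-wise loess. It was picked after the values were seen and has no test. In 27 probes the mean log2 ratio was above 0.5 with nitrate on Cy5 (0.50 to 1.71) and below -0.5 with nitrate on Cy3 (-2.42 to -0.71), so that Cy5 was the brighter dye whichever sample it marked. With one loess per scan 386 probes met these limits, and all of the 27 were among them. The opposite arrangement was seen in 6 probes with the block-wise loess. Of the 27 probes, 26 carried DV accessions, against 288 of the 386 found with one loess per scan. Of all probes, 98.7% of 5057 on plates with names ending in RS had DV accessions, and 0% of 2631 on plates ending in V2. Among the 32 clone plates, the 5 with most of the 27 held 22 of them, and 1 plate held 8.

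**Figure D5:**
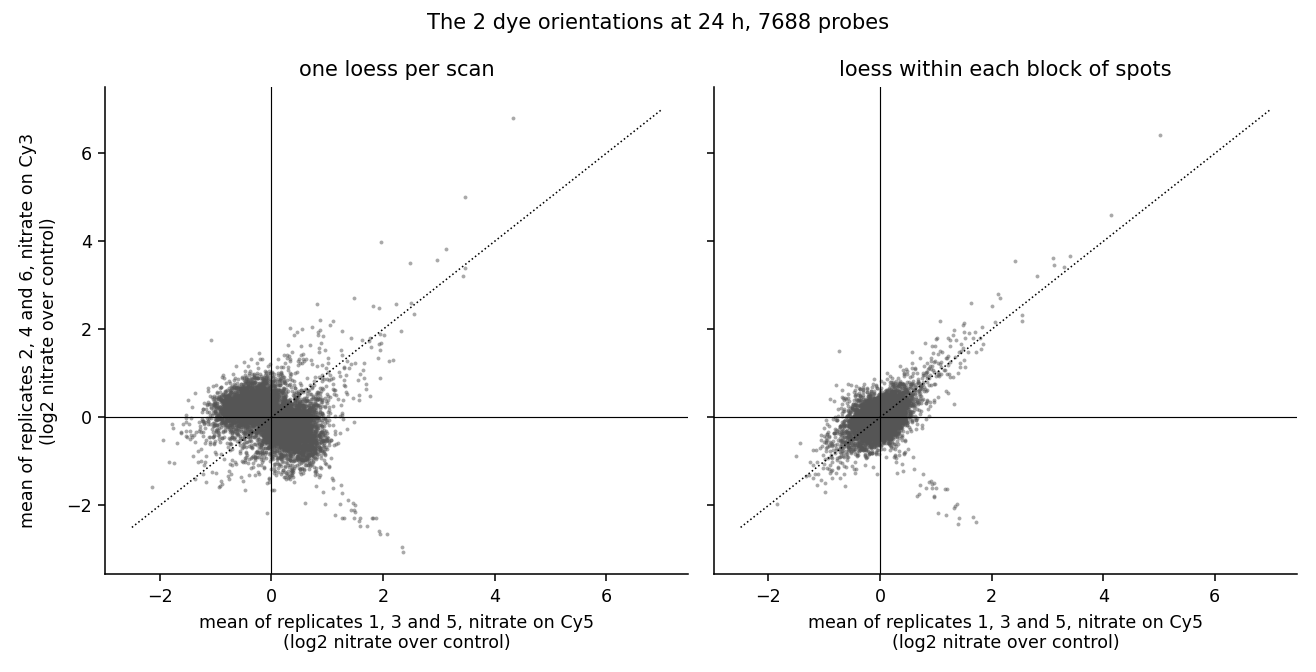
For each of 7688 probes, the mean log2 ratio of nitrate over control over replicates 1, 3 and 5 (nitrate on Cy5, x axis) is set against that over replicates 2, 4 and 6 (nitrate on Cy3, y axis). The dotted line marks equality. With one loess per scan (left) r is -0.20, with loess within blocks (right) 0.55, and on the right 27 probes lie above 0.5 on x and below -0.5 on y.

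Calls were fewest among dim probes. In 5 classes of equal size ordered from dim to bright, 4.49%, 6.44%, 7.87%, 8.52% and 9.23% of probes were called higher and 5.40%, 7.81%, 8.39%, 8.26% and 6.89% lower. The median standard error ran from 0.126 in the dimmest to 0.114 in the brightest class. Large rises were not tied to brightness in this way: more than 2-fold rises numbered 18, 18, 14, 20 and 11 over the classes, and more than 2-fold falls 3, 6, 6, 8 and 4. In every class more probes rose than fell by over 2-fold. With one loess per scan, the probes with more than 2-fold rises had a median log2 ratio of 1.31 on High, 1.38 on Medium and 1.43 on Low scans, and those with more than 2-fold falls -1.13, -1.18 and -1.20. The block-wise medians were 1.32, 1.43 and 1.40 for rises and -1.15, -1.14 and -1.17 for falls, with no steady order over the power settings. Single probes also ran against the order, such as BG842769 with 1.99, 1.87 and 1.48 on High, Medium and Low scans. In the Low scans 4 to 13 of 7888 spots were saturated per scan, 16 spots in all, which belonged to 16 probes of which 2 were called and 0 are named here. In all, 0 probes lay at background in either channel of all High scans.

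The large changes were not spread evenly over the clone collections. Plate names ending in V2 covered 9 plates and 2631 probes, and names ending in RS covered 23 plates and 5057 probes, of which 98.7% had DV accessions. On the V2 plates 18.5% of probes were called, with 51 rises and 18 falls over 2-fold and 12 rises over 4-fold. On the RS plates 12.7% were called, with 30 rises and 9 falls over 2-fold and 3 rises over 4-fold. With the block-wise loess the shares were 37.0% and 33.9%. What the name endings stand for is not given in the sources used here, and the difference between the collections was not tested. Single plates leaned one way. Plate stan202205h_RS held 15 higher (8.02%) and 0 lower probes of 187, and plate stan9093h_RS 3 higher (1.2%) and 13 lower (5.2%) of 250. Over all probes 7.31% were higher and 7.35% lower, so that each plate mainly lacked calls in the other direction. With the block-wise loess stan202205h_RS had 52 higher (27.8%) and 12 lower (6.42%) probes. Plate stan9093h_RS then had 14 higher (5.6%) and 45 lower (18%), against 17.6% higher and 17.3% lower over all probes. The plates were picked after their counts were seen.

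The response at 24 h was set against that at 30 min to ask how much of it was specific to the longer exposure. The times share no array and no control. The difference between the ratios passed for 326 probes (4.24%), with 177 (2.3%) higher and 149 (1.94%) lower at 24 h than at 30 min, and 301 of them were also called at 24 h. The block-wise loess gave 1230 (16.0%), with 647 (8.42%) higher and 583 (7.58%) lower. At 30 min alone 88 probes (1.14%) passed, 82 (1.07%) higher and 6 (0.078%) lower. Of the 562 probes higher at 24 h, 42 (7.47%) were also higher at 30 min, and of the 565 lower at 24 h, 6 (1.06%) were also lower. The 42 are 51.2% of the probes higher at 30 min, and the 6 are all of the probes lower at 30 min. For 6 probes the calls were opposite, higher at 30 min and lower at 24 h. With the block-wise loess 162 probes (2.11%) passed at 30 min, 145 (1.89%) higher and 17 (0.221%) lower. Then 76 were higher at both times, 5.62% of those higher at 24 h, 14 were lower at both times and 12 had opposite calls. With one loess per scan, the median 30 min log2 ratio was 0.02 for the probes higher at 24 h and -0.05 for those lower at 24 h. The block-wise values were 0.01 and -0.03.

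Of the 15 named probes, 11 differed between the times by this test. The count is in part fixed by the choice of probes, since BG874013, DV489508, DV492356 and BM076073 were named for this difference. The others of the 11 were named for their 24 h ratio or its moderated t, and the 24 h ratio is a term of the difference. DV489508 had log2 ratios at 24 h from 2.60 to 4.58, with a mean of 3.47 ± 0.76 (SD, n = 6), and a mean of -0.12 at 30 min. The difference was 3.59 ± 0.25 (SE; limma, adjusted p = 3.59e-08). Its High-scan signals at 24 h ran from 10464 to 52126 units in nitrate roots, against 872 to 3036 units in control roots, and did not overlap. The highest came from replicate 3, whose High scan is flagged below, and the next highest was 19539 units. The spot of DV489508 was saturated in 1 High scan. All 4 probes named for their pairs of spots had 30 min log2 ratios between -0.19 and 0.05. BG842769 averaged 1.78 at 24 h against 0.05 at 30 min, a difference of 1.73 ± 0.15 (SE; limma, adjusted p = 2.69e-07), and BG841623 averaged -1.16 against -0.19, a difference of -0.97 ± 0.21 (SE; limma, adjusted p = 0.00702). BM333948 was already high at 30 min, with 5.56 at 24 h against 3.46 at 30 min. The difference was 2.11 ± 0.45 (SE; limma, adjusted p = 0.00702). BM334491 was also high at 30 min, with 3.33 at 24 h against 2.25 at 30 min, a difference of 1.07 ± 0.17 (SE; limma, adjusted p = 0.00041). DQ011869 averaged 3.44 at 24 h and 3.04 at 30 min, a difference of 0.40 ± 0.20 (SE) that did not pass (limma, adjusted p = 0.347). DV492356 ran the other way. At 24 h it averaged -0.07 ± 0.41 (SD, n = 6; limma, adjusted p = 0.773), with replicates on both sides of 0, against 1.80 at 30 min.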

How the data were processed

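Two-channel scans were analysed, 18 of the 24 h and 18 of the 30 min exposure. Per the file headers, the deposited scan files give mean and median foreground and background intensity per spot and channel on the linear scale of the scanner, up to 65535, with values normalized by the authors. The deposited final value equals Cy5 minus Cy3 on a natural log scale (largest gap 8.88e-16), and the series table holds the same natural log ratios. For the authors' normalization, scanner and image software the sources used here give nothing. The authors' values served as an alternative.

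Intensities were processed in R 4.3.3 with limma 3.58.1. The background correction was normexp (offset 50) on foreground means and local background medians, and loess was fitted once per scan. The labelled dyes gave the direction of each ratio. Values were averaged first over the 3 scans of a replicate and then over spots, which took 7888 spots to 7688 probes. Saturated spots were kept. A linear model with 3 coefficients (30 min, 24 h and a common dye effect) was fitted to the 12 replicates, with empirical Bayes moderation (9 residual and 10.9 prior degrees of freedom) and Benjamini-Hochberg adjustment over all probes. Loess removes a shift common to most transcripts. For the block-wise setting, added after the data were seen, loess (span 0.3) was fitted within 32 blocks of 380 spot numbers. The number of arrays limits the precision. Both loess settings and the 24 h fit were tested on simulated scans with known changes and a known block pattern. Fewer probes were changed there than were called here, saturation was not imitated, and the difference between the times was not checked.

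Named probes were those with a gene name, and, among probes called with one sign in all 6 replicates, the 2 highest and 2 lowest by log2 ratio, by moderated t, and by log2 ratio among probes with 2 spots. The 2 highest and 2 lowest differences between the times, among probes called in that difference, were added. Names came from the files and from the RefSeq table of assembly Zm-B73-REFERENCE-NAM-5.0. Samples, lists and rules were chosen with earlier results of these data known. Whether replicate numbers paired the arrays of the times could not be told, since same-numbered arrays had opposite dye orientations. With one loess per scan, same-numbered deviations correlated at -0.76 to 0.15.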

Additional observations from a re-analysis of the deposited data

Results flagged for a closer look

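Of 24 sets of 6 values searched, 7 held a single value far from the other 5, where chance gives about 1 in 20. Of these, 6 belonged to scans of 24 h replicate 3. Signal medians and saturation shares of the same array are not independent, so that the count of sets cannot be set against that rate. On High power the Cy5 channel of replicate 3 had a median of 30228 units, where the other 5 replicates lay between 5492 and 8935. Saturation then affected 30.4% of its spots, where the others had 4.48% to 9.24%. On Medium power its medians were 10488 units for Cy3 and 21033 units for Cy5, where the others lay at 1827 to 2467 and 1584 to 2960 units. Saturation affected 21.9% of spots there, where the others had 0.761% to 1.67%. On Low power its Cy3 median was 1301 units, where the others lay between 515.3 and 791. Without the High and Medium scans of replicate 3, 1243 probes passed at 24 h and 354 in the difference between the times. The remaining value was the log2 ratio of BM334491 in the same replicate, 3.70 against 3.14 to 3.32 in the others. With the block-wise loess the replicates of BM334491 ran from 2.91 to 3.52.

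The ratio differed between 24 h and 30 min, by the model's own test, for 11 named probes. The log2 difference, 24 h minus 30 min, was 3.63 for BG874013, 3.59 for DV489508, 2.11 for BM333948, 1.73 for BG842769, 1.23 for BG841837 and 1.07 for BM334491. It was -1.87 for DV492356, -1.69 for BM076073, -1.22 for BM080220, -0.98 for BG842880 and -0.97 for BG841623. BG874013, DV489508, DV492356 and BM076073 were named for the size of this difference, so that theirs are a description. The others were named for their 24 h ratio or its moderated t, which enters the difference, so that theirs are not independent tests.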

How the results depend on the processing

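Settings that kept all replicates moved the 1127 probes at 24 h by no more than 1.5 times in 13 of 21 cases, and the 326 probes in the difference between the times in 12 of 20. Beyond that range, the model without a dye effect gave 514 and 137, where dye differences enter the spread, array weights 1899 and 642, an adjusted p under 0.01 568 and 173, the block-wise loess 2686 and 1230, block medians subtracted 2595 and 1157, and the deposited values with block medians subtracted 2604 and 1166. The block-wise loess without a dye effect gave 2294 and 917, and with the 24 h replicates alone 2101 at 24 h. High scans alone gave 182 in the difference. The block settings were chosen after seeing the data, and for the other settings the cause was not tested. Leaving out 1 replicate gave 755 to 947 probes at 24 h, 2154 to 2413 with the block-wise loess, and 243 to 465 in the difference, the last without 30 min replicate 1. With the replicate number as a block, 488 probes passed in the difference. 0 of 6 arrays correlated best with their own number. This check cannot show whether the numbers paired the samples, since same-numbered arrays had opposite dye orientations at the 2 times. Of the named probes called at 24 h, each kept its direction and call in every setting run. They had been picked as extremes of these same data, so that this does not extend to the other calls. BM333948 ranged from 5.20 to 6.20 and BM076073 from -2.01 to -1.77. The call of rf2e3 appeared in 11 of its 32 settings.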
